A study of Rattus norvegicus with 16 samples.

Results

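The GDNF family ligands and their receptors were followed across 4 cell populations sorted from cultures of rat olfactory mucosa, the nasal lining in which the olfactory neurons lie. The 7 genes were taken by name from the array's annotation: the ligands Gdnf, Nrtn and Artn, the co-receptors Gfra1, Gfra2 and Gfra3, and the shared receptor Ret. They were covered by 11 of the 30367 probes that were not controls, 3 each for Gfra2 and Ret and 1 each for the other genes. The populations were TRKA-TGF (TRKA cells induced with transforming growth factor alpha), TRKA, CD90 and p75. CD90 is the protein of Thy1, and p75 is the neurotrophin receptor of Ngfr. All came from male Fischer rats, and TRKA, CD90 and p75 cells shared a culture protocol. Each population had 4 biological replicates, hybridised on 1 array each. The ages of the rats are not given in the labels used here.

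GDNF, neurturin (encoded by Nrtn) and artemin (Artn) are secreted dimers of the cystine knot class. Each binds mainly its own lipid-anchored co-receptor, GDNF to GFRα1, neurturin to GFRα2 and artemin to GFRα3, and the pair then brings together 2 molecules of the receptor tyrosine kinase RET. Where RET is lacking, the neural adhesion molecule NCAM can serve with GFRα1 as a receptor for GDNF. Schwann cells and olfactory ensheathing glia, the glia that accompany olfactory axons, are known sources of GDNF and carry GFRα1.

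The probes show which part of each transcript was read. The 5 probes printed here lie in coding sequence, apart from the last base of the Gdnf probe, which follows the stop codon. They are given as sense strand, with capitals on the cysteine codons of an open reading frame of the probe. Cysteines form the disulphide bonds of these ligands and receptors.
Gdnf A_64_P004162: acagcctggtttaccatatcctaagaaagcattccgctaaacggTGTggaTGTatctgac
Gfra1 A_44_P107308: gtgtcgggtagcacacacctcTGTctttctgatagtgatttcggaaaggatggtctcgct
Gfra2 A_64_P146388: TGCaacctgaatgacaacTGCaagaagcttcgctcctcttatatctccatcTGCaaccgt
Gfra2 A_64_P007628: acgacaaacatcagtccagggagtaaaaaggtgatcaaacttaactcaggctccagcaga
Ret A_44_P480153: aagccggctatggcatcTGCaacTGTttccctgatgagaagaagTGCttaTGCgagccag
The Gdnf probe covers the end of the open reading frame, with 2 cysteine codons just before the stop. The Ret probe holds 4 cysteine codons and reads a stretch shared by both annotated transcript variants. The first Gfra2 probe holds 3 cysteine codons, and the second holds none and lies nearer the 3′ end.

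On rn4, the build of the array files, the Gdnf probe lies at chr2:57423957-57424016 and starts at base 626 of its transcript. The Gfra2 probes lie at chr15:51313962-51314021 (A_64_P146388, base 621), chr15:51369656-51369715 (A_64_P007628, base 1395) and chr15:51370896-51370955 (A_42_P791436, base 2625). The Gfra1 probe spans 802 bases of chromosome 1, from 264616404 to 264617205 on the minus strand, so it crosses a splice junction. The Ret probes lie on the minus strand of chromosome 4, at 154468435 to 154468494 (A_44_P480153), 154450996 to 154451055 (A_64_P154024) and 154448663 to 154448722 (A_64_P154019). The remaining probes lie on chromosome 5 at 138391000 to 138391059 (Artn, minus strand), on chromosome 18 at 27167577 to 27167636 (Gfra3, minus strand), and on an unplaced sequence (Un) at 25029877 to 25029936 (Nrtn).

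A level below is a probe's log2 processed signal after its array's 75th percentile was subtracted, so that 0 is the 75th percentile. A probe's level says nothing about its abundance next to another probe's, and levels near −8 are those of probes not well above background. The TRKA arrays measured fewer transcripts: 66.4 to 70.6% of spots were well above background in TRKA-TGF, 51.4 to 57.5% in TRKA, 70.7 to 72.4% in CD90 and 68.5 to 71.2% in p75. The CD90 and p75 labels were checked against the gene behind each name. Thy1 lay between 3.12 and 3.76 in CD90, and at most at −1.11 elsewhere. Ngfr reached at most 0.19 in the other populations, against 2.82 to 3.32 in p75.

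Markers of other cell types differed between the populations. The summed level of 12 olfactory ensheathing and Schwann glia markers was 1.44 to 1.63 in TRKA-TGF, −1.37 to 0.14 in TRKA, 0.05 to 0.86 in CD90 and 6.67 to 6.80 in p75. Of the 12, 9 to 10 were well above background on TRKA-TGF arrays, 4 to 7 on TRKA arrays, 7 on CD90 arrays and all on every p75 array. Not well above background on any array were Npy in TRKA-TGF, Ngfr, S100b, Cdh19 and Npy in TRKA, and Erbb3, Cdh19 and Npy in CD90. The summed level of 12 macrophage markers was 7.81 to 7.87 in TRKA-TGF, 9.06 to 9.47 in TRKA, 4.14 to 5.02 in CD90 and 2.67 to 3.37 in p75. For 10 fibroblast markers it was 2.94 to 3.98 in TRKA-TGF, 7.03 to 7.36 in TRKA, 9.0 to 9.19 in CD90 and 7.72 to 7.80 in p75. Col1a1 alone averaged 6.89 in TRKA and 7.23 in p75, near those sums. Of the 10, 7 to 9 were well above background on TRKA-TGF arrays, 5 to 8 on TRKA arrays, 10 on CD90 arrays and 8 to 10 on p75 arrays. For 7 smooth muscle markers the summed level was 0.17 to 2.56 in TRKA-TGF, 0.71 to 3.29 in TRKA, 6.63 to 6.75 in CD90 and 4.30 to 4.66 in p75. Tagln alone averaged 6.44 in CD90 and 4.41 in p75, near those sums. Of the 7, 3 to 5 were well above background on TRKA-TGF arrays, 4 to 5 on TRKA arrays, 7 on CD90 arrays and 4 to 5 on p75 arrays. The 5 olfactory neuron and sustentacular markers tested reached at most 0.72 in TRKA-TGF, −0.46 in TRKA, 0.65 in CD90 and 2.90 in p75. In p75, Gap43 averaged 2.42, against −6.22 for Omp, −3.50 for Gng13, −2.40 for Ermn and −1.94 for Tubb3. The 6 epithelial markers summed to at most 0.99 and the 4 endothelial markers tested to at most −0.28 on any array.

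Of the 7 genes, 5 passed the filter (well above background on 4 or more of 16 arrays) and entered the fit over 20571 genes: Gdnf, Nrtn, Artn, Gfra1 and Gfra2. Gdnf was well above background on 2 CD90 and 4 p75 arrays, and the brightest Gfra2 probe on 1 TRKA-TGF, 2 CD90 and 4 p75 arrays. Both thus passed only through the p75 arrays, where they are high, so that their calls against p75 and any count that holds them are descriptions. Ret and Gfra3 did not pass. The levels showed 2 patterns. Gfra1, Gfra2 and Gdnf were bright in p75 cells and dim in the other 3 populations, whereas Artn was brighter in CD90 and p75 cells than in both TRKA populations. In such bulk samples fewer cells that carry a transcript and less of it per cell cannot be told apart.

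**Figure D1:**
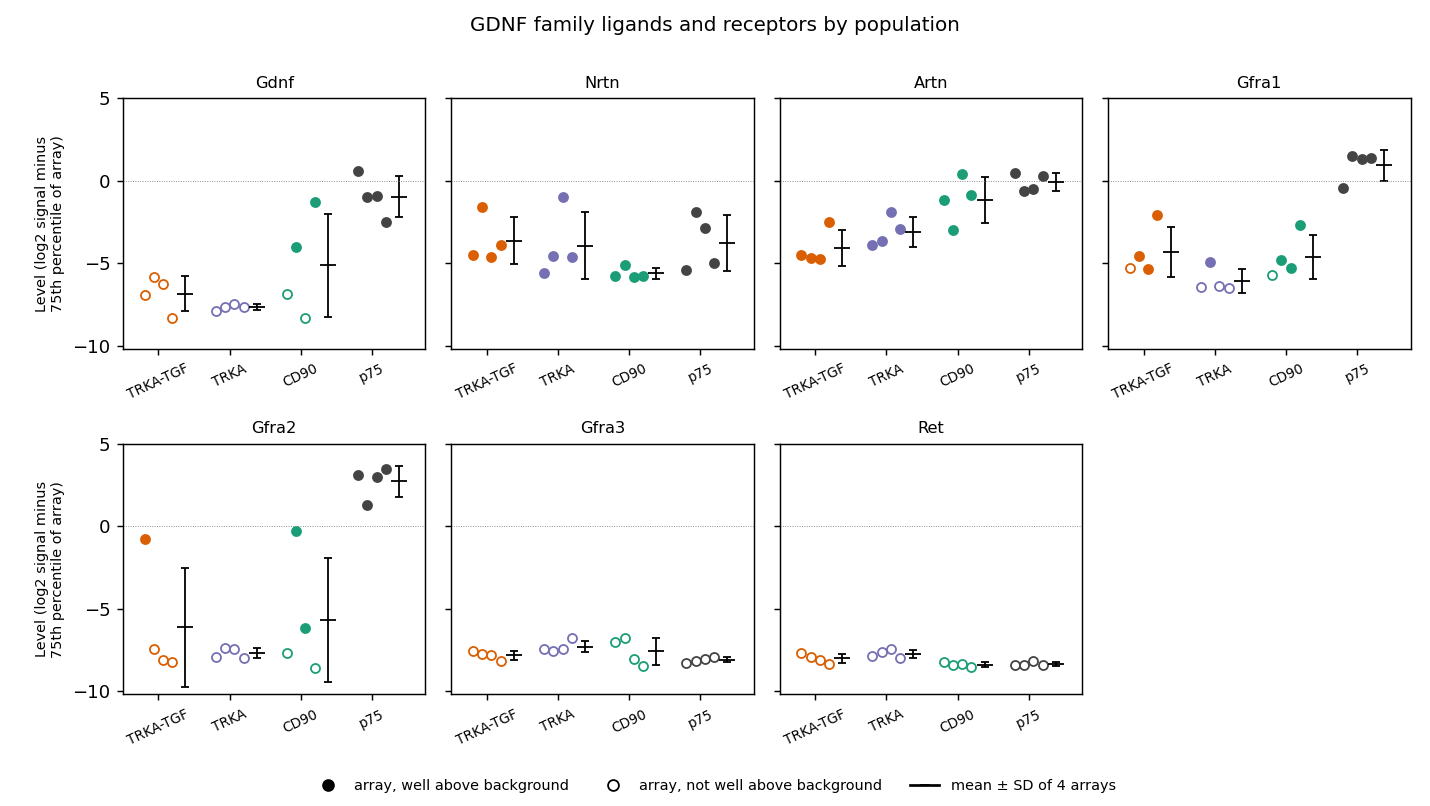
Level of the 7 genes on each array (log2 signal minus the 75th percentile of the array) in TRKA-TGF, TRKA, CD90 and p75 cells, filled where the probe was well above background, with mean ± SD of 4 arrays. The p75 arrays of Gfra1 and Gfra2 lie above all others, those of Gdnf above both TRKA populations, Artn is lower in the TRKA populations than in p75, and Gfra3 and the Ret probe shown are drawn as unfilled circles on all arrays.

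Gdnf, the ligand for GFRα1, had levels of −6.93, −5.86, −6.26 and −8.33 in TRKA-TGF cells and of −7.90, −7.63, −7.46 and −7.67 in TRKA cells, none well above background. It had −6.88, −4.02, −8.34 and −1.29 in CD90 cells, well above background on replicates 2 and 4, and 0.57, −1.01, −0.91 and −2.47 in p75 cells, well above background on all. The p75 and TRKA populations did not overlap, and CD90 replicate 4 lay above the dimmest p75 array. Against p75, Gdnf was lower by at least 45.1-fold in TRKA-TGF (adjusted p = 0.0032) and by at least 49.1-fold in TRKA (adjusted p = 0.000545). The log2 difference of CD90 from p75 was −4.18 (SE 1.19, adjusted p = 0.0497). That last call was not stable: the difference was −3.11 without CD90 replicate 3 (adjusted p = 0.128) and −5.46 without CD90 replicate 4 (adjusted p = 0.00263), and in 19 of 25 alternatives the call was lost. With normexp background the differences from p75 were smaller, at −3.17 in TRKA-TGF, −2.99 in TRKA and −2.34 in CD90, so the bounds above hold for the scanner's own background subtraction. The means were −6.84 in TRKA-TGF, −7.67 in TRKA, −5.14 in CD90 and −0.96 in p75, so that p75 was highest and CD90 next, and no pair among the first 3 was called. TRKA-TGF and TRKA, both at background, have no order.

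Nrtn, the ligand for GFRα2, was well above background on all 16 arrays. Its levels were −4.49, −1.56, −4.65 and −3.88 in TRKA-TGF and −5.61, −4.56, −1.0 and −4.61 in TRKA. They were −5.75, −5.14, −5.81 and −5.79 in CD90 and −5.42, −1.91, −2.84 and −4.96 in p75. The CD90 arrays were the most even, and the other populations each held 1 or 2 arrays far above the rest. CD90 lay below all TRKA-TGF arrays and overlapped TRKA and p75. No comparison was called (adjusted p 0.224 to 0.964), and the largest difference was 1.98 for TRKA-TGF over CD90 (SE 1.02, adjusted p = 0.251). The scaling mattered for TRKA over CD90, where the difference was 1.68 (adjusted p = 0.224) and became 3.14 (adjusted p = 0.0123) with quantile normalization. The means were −3.65 in TRKA-TGF, −3.94 in TRKA, −5.62 in CD90 and −3.78 in p75, with CD90 lowest and no called pair.

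Artn, the ligand for GFRα3, was also well above background on all 16 arrays. It had levels of −4.52, −4.66, −4.75 and −2.47 in TRKA-TGF and of −3.89, −3.65, −1.91 and −2.95 in TRKA. It had −1.18, −2.96, 0.41 and −0.87 in CD90 and 0.47, −0.62, −0.48 and 0.29 in p75. All p75 arrays lay above all arrays of both TRKA populations, and CD90 overlapped p75 and, through replicate 2, the TRKA populations. Artn was 16.2-fold lower in TRKA-TGF than in p75 (log2 −4.01, SE 0.70, adjusted p = 0.00111) and 8.06-fold lower in TRKA (log2 −3.01, SE 0.70, adjusted p = 0.00415), or by log2 −3.02 and −2.33 with normexp background. Against CD90, Artn was lower in TRKA-TGF by 7.72-fold (log2 −2.95, adjusted p = 0.0107) and in TRKA by 3.85-fold (log2 −1.95, adjusted p = 0.0454). The TRKA call against CD90 was lost in 19 of 26 alternatives, with a difference of −0.16 (adjusted p = 0.866) when arrays were centred on their medians, and that scaling also took the call against p75 (−1.34, adjusted p = 0.12). The means were −4.10 in TRKA-TGF, −3.10 in TRKA, −1.15 in CD90 and −0.09 in p75, each below the next, and the neighbouring pairs CD90 and p75 (−1.07, adjusted p = 0.508) and TRKA-TGF and TRKA (−1.0, adjusted p = 0.326) were not called.

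Gfra1 encodes the co-receptor for GDNF. Its levels were −5.32, −4.54, −5.33 and −2.08 in TRKA-TGF, well above background on 3 arrays, and −6.47, −4.95, −6.39 and −6.52 in TRKA, well above background on replicate 2. They were −5.74, −4.83, −5.28 and −2.68 in CD90, well above background on 3 arrays, and −0.46, 1.53, 1.30 and 1.41 in p75, on all 4. Each p75 array was above each array of the other 3 populations. Against p75, Gfra1 was 38.3-fold lower in TRKA-TGF (log2 −5.26, SE 0.81, adjusted p = 0.000389), 130-fold lower in TRKA (−7.02, SE 0.81, adjusted p = 1.52e-05) and 47.7-fold lower in CD90 (−5.57, SE 0.81, adjusted p = 0.000466). These 3 calls held in all alternatives run, with log2 differences of −6.01 to −3.82 in TRKA-TGF, −7.49 to −4.20 in TRKA and −6.23 to −4.07 in CD90. As Gfra1 was well above background on only 1 TRKA array, the size of the 130-fold difference is not settled. With normexp background the TRKA difference was −4.20. The means were −4.32 in TRKA-TGF, −6.08 in TRKA, −4.63 in CD90 and 0.94 in p75, and no pair among the first 3 was called.

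Gfra2 encodes the co-receptor for neurturin. Its brightest probe, A_64_P007628, had levels of −0.74, −7.43, −8.13 and −8.22 in TRKA-TGF and of −7.91, −7.40, −7.46 and −8.0 in TRKA. It had −7.67, −0.29, −6.15 and −8.62 in CD90 and 3.12, 1.31, 3.00 and 3.47 in p75. The p75 arrays stood above all others, TRKA-TGF replicate 1 and CD90 replicate 2 were single high arrays, and TRKA was not well above background on any array. It was well above background on 1 TRKA-TGF and 2 CD90 arrays, so the size of the difference is not settled there. Against p75, Gfra2 was lower in TRKA-TGF (log2 −8.85, SE 1.77, adjusted p = 0.00295), at least 631-fold lower in TRKA (adjusted p = 0.000391) and lower in CD90 (log2 −8.41, SE 1.77, adjusted p = 0.00848). These 3 calls held in all alternatives run, but the sizes did not: the log2 difference from p75 was −5.95 in TRKA-TGF, −6.42 in TRKA and −5.86 in CD90 under normexp background, and as small as −4.09, −4.38 and −4.17 when the filter at 8 arrays put probe A_42_P791436 in its place. The means were −6.13 in TRKA-TGF, −7.69 in TRKA, −5.68 in CD90 and 2.73 in p75, and no pair among the first 3 was called.

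The other Gfra2 probes were also highest in p75, with smaller differences, in a fit over 23695 probes. Probe A_42_P791436 had levels of −4.36, −6.21, −5.38 and −5.42 in TRKA-TGF, −6.18, −6.03, −4.87 and −5.46 in TRKA, −4.91, −5.49, −5.05 and −6.25 in CD90 and −0.69, −1.07, −1.05 and −2.21 in p75. It differed from p75 by −4.09 in TRKA-TGF (adjusted p = 2.9e-05), −4.38 in TRKA (adjusted p = 7.79e-06) and −4.17 in CD90 (adjusted p = 4.92e-05), each with SE 0.47. Probe A_64_P146388 was well above background on the p75 arrays alone, at −3.90, −2.86, −1.60 and −1.05. It was at least 22.0-fold lower in TRKA-TGF, 18.6-fold lower in TRKA and 29.2-fold lower in CD90 than in p75 (adjusted p 1.23e-06 to 1.61e-06), and this probe passed the filter through p75. On TRKA-TGF replicate 1 and CD90 replicate 2, the high arrays of the brightest probe, A_64_P146388 stood at −7.72 and −8.44, not well above background.

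Ret, the signalling receptor that all 3 ligands share, and Gfra3, the co-receptor for artemin, were not measured above background in any population as a whole. The 3 Ret probes ranged from −8.33 to −6.59 in TRKA-TGF, −8.01 to −6.99 in TRKA, −8.56 to −7.93 in CD90 and −8.41 to −6.83 in p75. A single reading, probe A_64_P154024 on p75 replicate 2, was counted as well above background, with a signal of 11.9 and 50% of its spots marked so. Gfra3 ranged from −8.19 to −7.59 in TRKA-TGF, −7.54 to −6.76 in TRKA, −8.46 to −6.78 in CD90 and −8.28 to −7.94 in p75, with no array well above background. Fitted without a filter, over 26207 genes with limma and with Ret represented by that probe, neither gene was called in any of the 6 comparisons (adjusted p 0.0767 to 0.948), and the unadjusted p was under 0.05 for Gfra3 in TRKA over p75 and for Ret in TRKA over CD90. Readings at background bound the transcripts from above and do not show that they are absent. Of the related co-receptors, Gfra4, the co-receptor for persephin, was not well above background on any array, and Gfral, the receptor for GDF15, was on 1 TRKA-TGF and 1 TRKA array.

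**Figure D2:**
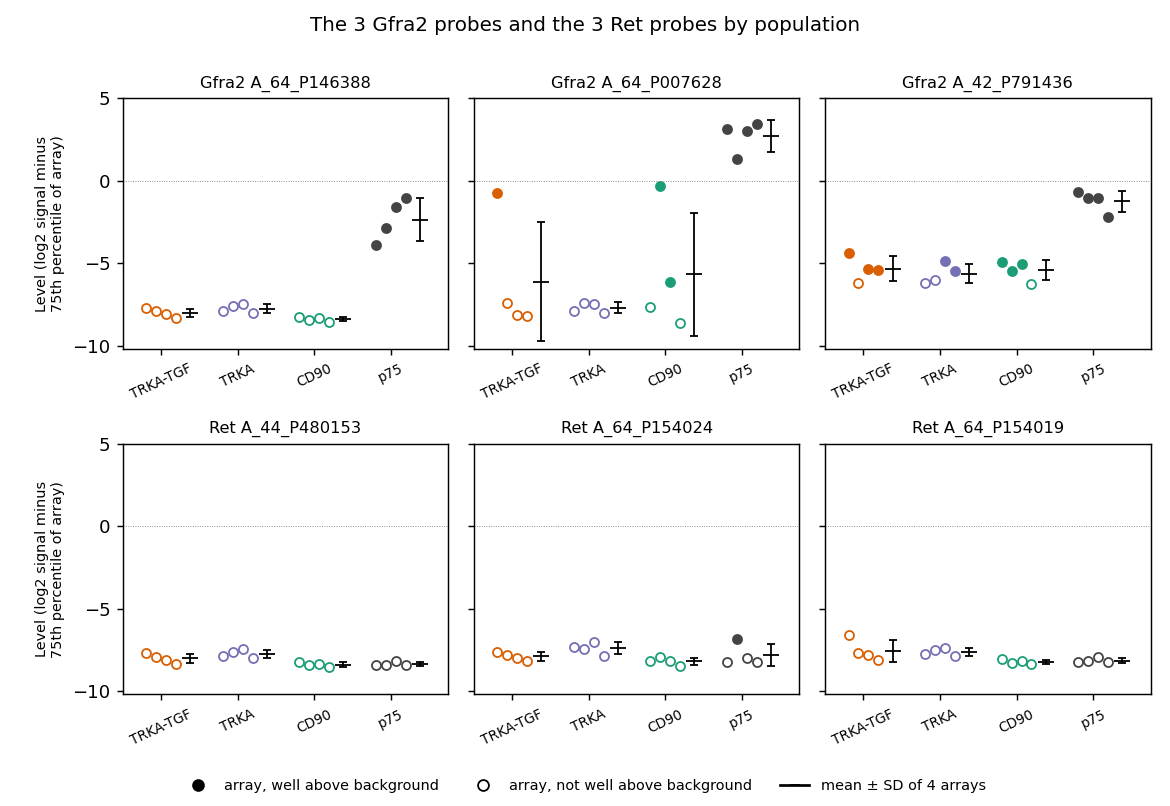
Level of each of the 3 Gfra2 probes (upper panels) and 3 Ret probes (lower panels) on each array, filled where well above background, with mean ± SD of 4 arrays per population. All 3 Gfra2 probes are highest in p75 cells, the isolated high arrays of TRKA-TGF and CD90 appear in 1 of the 3 probes, and the Ret probes lie at −6.59 or below, with 1 p75 array filled.

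Set out by comparison, 4 of the 7 genes were called in TRKA-TGF against p75 (Gdnf, Artn, Gfra1 and Gfra2), all lower. Over all genes tested 15.1% were called there, 7.97% higher and 7.15% lower. The same 4 were lower in TRKA against p75, where 35.7% of all genes were called, 18.8% higher and 16.9% lower. In CD90 against p75, 3 of the 7 were lower (Gdnf, Gfra1 and Gfra2), with 7.25% of all genes called, 3.68% higher and 3.57% lower. Without the filter Gdnf lost that call (adjusted p = 0.059), which left 2, while both TRKA populations kept 4 calls against p75. Artn alone was lower in TRKA-TGF against CD90 (14.9% of all genes called, 7.72% higher and 7.19% lower) and in TRKA against CD90 (34.9% of all genes called, 18.3% higher and 16.6% lower). In TRKA-TGF against TRKA, the comparison that bears on the growth factor, limma called none of the 7 (26.4% of all genes called, 13.5% higher and 12.9% lower), and 1, Gfra1, had an unadjusted p under 0.05. Its level was 1.76 higher in TRKA-TGF (SE 0.81, adjusted p = 0.127), and 0.03 higher with arrays centred on their medians. Artn, at a difference of −1.0 here (adjusted p = 0.326), was called lower under other scalings. Its difference was −2.45 with quantile normalization (adjusted p = 0.0213) and −2.74 with medians (adjusted p = 0.00478). The authors' values, which matched quantile-normalized signals, gave −2.44 (adjusted p = 0.0214). These scalings also shifted the other genes. With medians, the median difference of all genes was −1.54, and 10003 of 20571 genes were called, 10.9% of them higher. Quantile normalization gave a median difference of −0.14 and 6476 calls, 39.8% of them higher.

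**Figure D3:**
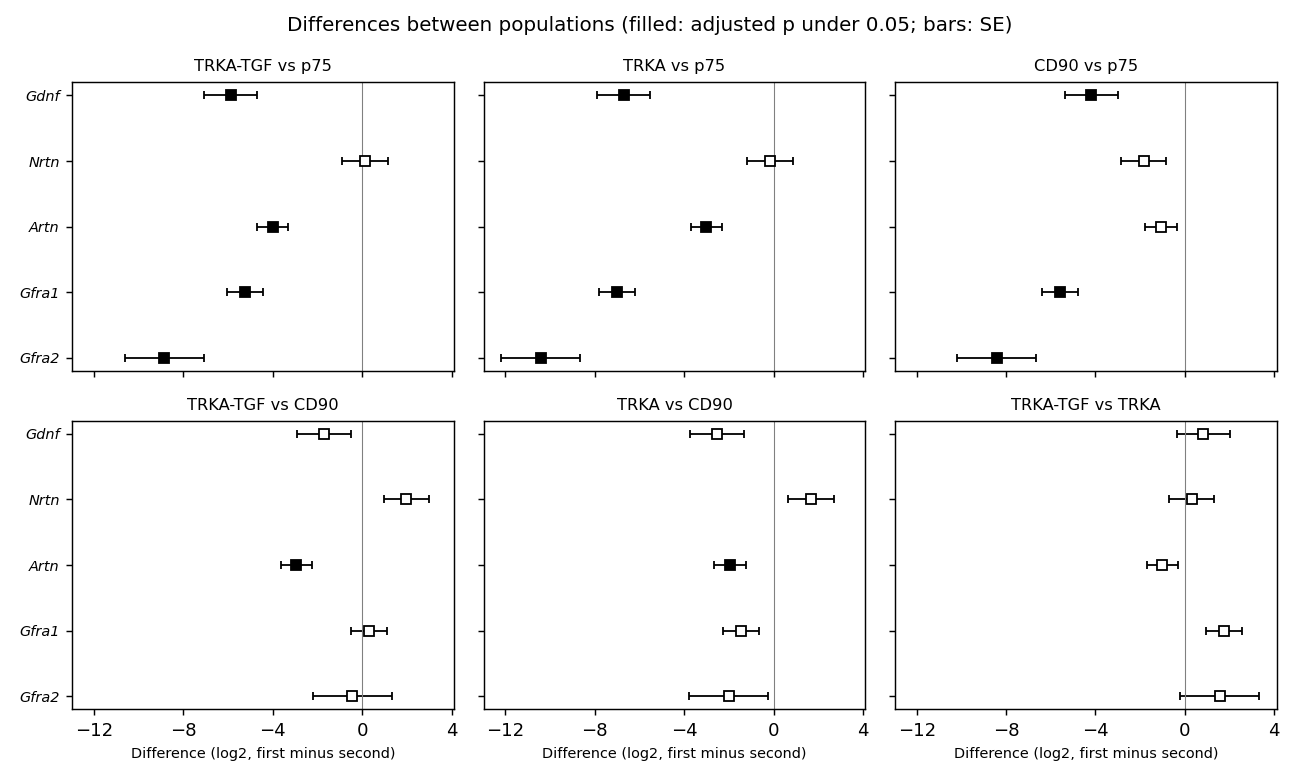
Differences in log2 level, first population minus second, of the 5 tested genes in the 6 comparisons, with SE bars and filled squares at an adjusted p under 0.05. The filled squares of Gdnf, Gfra1 and Gfra2 lie in the panels against p75, and those of Artn in the panels of the TRKA populations against p75 and CD90.

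The comparisons share populations, so the p75 arrays enter 3 of them and the agreement between these is not independent. TRKA and p75 arrays lay on slide 1 and those of TRKA-TGF and CD90 on slide 2, with a row for each population. Within slide 1, the fit of the 8 TRKA and p75 arrays alone called the same 4 genes, with adjusted p of 0.000203 (Gdnf), 0.00515 (Artn), 0.000132 (Gfra1) and 8.14e-06 (Gfra2). That fit called 5067 of all 20571 genes. Gdnf and Gfra2 had passed the filter only through p75, so their calls and the count of 4 are descriptions here too. Within slide 2, the fit of the 8 TRKA-TGF and CD90 arrays alone called Artn (adjusted p = 0.0395), and 4183 of all 20571 genes. In the other 4 comparisons slide and population cannot be told apart. The summed glia markers, like Gdnf, Gfra1 and Gfra2, were highest in p75, and the summed macrophage markers were lowest there, as given above. Outside p75 the orders differed. The glia sum was higher in TRKA-TGF than in CD90, whereas mean Gdnf and Gfra2 were lower there, in differences that were not called. The part of these cell type markers in the results was not tested.

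For TRKA-TGF and CD90, the arrays highest for Gfra1, Gfra2 or Gdnf are set beside the summed glia level. Their relation was not tested. The summed glia level was 1.44, 1.44, 1.63 and 1.51 on the 4 TRKA-TGF arrays, of which replicate 1 had the highest Gfra2, replicate 2 the highest Gdnf, at background, and replicate 4 the highest Gfra1. It was 0.37, 0.21, 0.86 and 0.05 on the 4 CD90 arrays, of which replicate 2 had the high Gfra2 reading (−0.29) and replicate 4 the highest Gdnf (−1.29) and Gfra1 (−2.68). Single glia markers did not all follow the sum. In CD90, Sox10 was highest on replicate 2 (−0.68) and Ngfr on replicate 4 (−1.34). In TRKA-TGF, Ngfr was highest on replicate 1 (0.19) and Sox10 on replicate 3 (−2.01). Within p75, replicate 1 had the lowest Gfra1 (−0.46) and the highest Gdnf (0.57), and replicate 4 the highest Gfra2 (3.47) and the lowest Gdnf (−2.47).

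Ncam1, which encodes the alternative partner of GFRα1, had levels of −6.10, −7.65, −7.52 and −6.32 in TRKA-TGF and −7.65, −7.39, −7.33 and −7.81 in TRKA, and of 2.09, 2.08, 1.84 and 1.70 in CD90 and 3.82, 3.7, 3.55 and 3.66 in p75. It was well above background on 2 TRKA-TGF arrays and on all CD90 and p75 arrays. Against p75, Ncam1 was lower in TRKA-TGF (log2 −10.58, adjusted p = 9.43e-11), at least 1220-fold lower in TRKA (adjusted p = 3.18e-11) and lower in CD90 (log2 −1.75, adjusted p = 0.00379). Gfra1 and Ncam1 were thus both measured on TRKA-TGF replicate 4, where Ncam1 was dim (−6.32), on 3 of the 4 CD90 arrays and on all p75 arrays. Ret was measured on none of these beyond the single reading above.

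Sdc3 encodes syndecan-3, a heparan sulphate proteoglycan that binds GDNF. Its levels were −0.43, 0.32, −0.61 and −0.83 in TRKA-TGF, 3.58, 3.94, 2.15 and 3.28 in TRKA, 0.00, −0.74, −6.36 and 0.11 in CD90 and 3.35, 3.80, 4.19 and 3.68 in p75. It was thus high in TRKA and p75, and lower in TRKA-TGF than in TRKA (log2 −3.63, SE 1.09, adjusted p = 0.0254). Lrig1, a membrane protein known to restrain GFRα1 and RET signalling, was lower in TRKA than in p75 (log2 −3.87, adjusted p = 8.13e-05) and higher in TRKA-TGF than in TRKA by 2.63 (adjusted p = 0.0027). Sorl1 encodes the sorting receptor that carries GDNF and GFRα1 through the cell. It was well above background on 3 TRKA-TGF arrays and on no TRKA or p75 array, at least 7.17-fold above TRKA (adjusted p = 0.0301) and likewise above p75 (adjusted p = 0.0209). With 1 CD90 array beside these, Sorl1 passed the filter only through TRKA-TGF, so its calls and any count that holds them are descriptions. Pspn, the gene of the fourth ligand, persephin, was well above background on all 16 arrays and averaged −2.09 ± 0.72 in TRKA-TGF, −2.87 ± 0.46 in TRKA, −2.13 ± 0.82 in CD90 and −1.51 ± 1.53 in p75 (SD, n = 4).

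**Figure D4:**
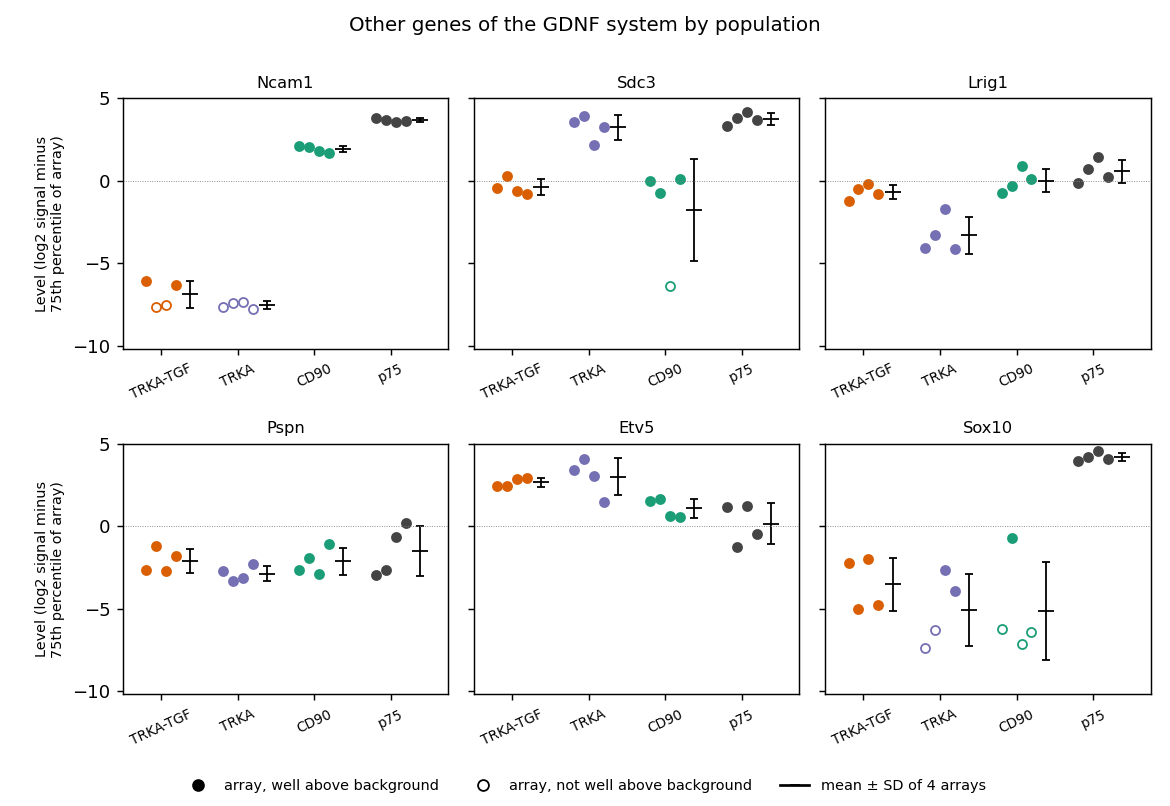
Level on each array of Ncam1, Sdc3, Lrig1, Pspn, Etv5 and Sox10 in TRKA-TGF, TRKA, CD90 and p75 cells, filled where well above background, with mean ± SD of 4 arrays. Ncam1 separates CD90 and p75 from both TRKA populations, Sdc3 is high in TRKA and p75, and Sox10 is high on the p75 arrays, between 3.97 and 4.56.

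In all, 59 further genes of the pathway were listed in 6 groups, and 52 of them were tested. Called were 22 in TRKA-TGF against p75 (4 higher, 18 lower), 28 in TRKA against p75 (6 higher, 22 lower) and 14 in CD90 against p75 (2 higher, 12 lower). Those are 42.3, 53.8 and 26.9% of the genes tested, beside the 15.1, 35.7 and 7.25% over all genes. The counts against p75 hold Shc3, which passed the filter only through p75, as did Lifr of the lists. The lists also hold Ngfr, the gene of the p75 sort, so these counts are descriptions. Against CD90, 17 were called in TRKA-TGF (5 higher, 12 lower) and 25 in TRKA (8 higher, 17 lower), or 32.7 and 48.1% of the genes tested beside 14.9 and 34.9% over all genes. TRKA-TGF against TRKA gave 16 calls, 12 higher and 4 lower, or 30.8% beside 26.4% over all genes. The median differences were −1.27, −1.99 and −0.48 for TRKA-TGF, TRKA and CD90 against p75, beside 0.14, −0.01 and 0.05 over all genes. They were −0.03 and −0.63 for TRKA-TGF and TRKA against CD90, beside 0.15 and −0.09, and 0.53 for TRKA-TGF against TRKA, beside 0.19.

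Of the receptor complex and other ligands, 6 of 9 genes were tested. Against p75, 1 was higher and 2 were lower in TRKA-TGF, 2 were lower in TRKA and 2 in CD90. Against CD90, 1 was lower in TRKA-TGF, and 1 was higher and 2 lower in TRKA. In TRKA-TGF against TRKA, 2 were higher and 1 was lower. The genes called are among Ncam1, Sdc3, Lrig1 and Sorl1, described above.

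Of 9 receptors for other neurotrophic factors, all tested, 6 were lower in TRKA-TGF than in p75, 7 in TRKA and 3 in CD90. Over all genes 7.15, 16.9 and 3.57% were lower there. The 7 in TRKA and the 3 in CD90 include Ngfr, the gene of the protein used to sort p75 cells. Lifr was well above background on 3 CD90 and 4 p75 arrays and so passed the filter only through p75. Counts that hold these genes are descriptions. Ntrk3, the receptor for neurotrophin 3, was at least 126-fold lower in TRKA-TGF than in p75 (adjusted p = 6.97e-09) and likewise lower in TRKA (adjusted p = 5.32e-09), and it averaged 0.62 ± 0.89 in CD90 and 0.16 ± 0.52 in p75. Erbb3, a neuregulin receptor of glia, was at least 648-fold lower in CD90 than in p75 (adjusted p = 0.000159). Against CD90, 2 of the 9 were higher and 4 lower in TRKA-TGF, and 4 were lower in TRKA. Ngfr, whose protein the p75 sort used, was higher in TRKA-TGF than in TRKA, by at least 73.7-fold (adjusted p = 0.000474), as was Il6st, the shared subunit of the LIF and CNTF receptors, by 3.66 on the log2 scale (adjusted p = 0.00598), and these were the 2 genes of the group called there.

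Of the 20 RET adaptors and signalling genes, 18 were tested. Against p75, 2 were higher and 3 lower in TRKA-TGF, 2 higher and 7 lower in TRKA, and 1 higher and 2 lower in CD90. Dok5, a docking protein that binds RET, averaged −1.65 ± 0.71 in TRKA-TGF, −6.36 ± 1.5 in TRKA, 1.42 ± 0.41 in CD90 and 2.25 ± 0.30 in p75 (SD, n = 4). It was lower than in p75 in TRKA-TGF (log2 −3.90, adjusted p = 0.000399) and in TRKA (log2 −8.61, adjusted p = 1.3e-07). Shc3, a neural adaptor, was lower than in p75 in TRKA-TGF (log2 −5.56, adjusted p = 0.00131) and in CD90 (log2 −4.94, adjusted p = 0.00609). It was well above background on 1 TRKA-TGF, 1 CD90 and 4 p75 arrays. Shc3 thus passed the filter only through p75, and its calls against p75 are descriptions. Grb10, an adaptor that binds RET, was higher in CD90 than in p75 by 6.69 (adjusted p = 0.00101). Grb2, the adaptor that leads to RAS, was higher than in p75 by 1.08 in TRKA-TGF (adjusted p = 0.00257) and by 2.18 in TRKA (adjusted p = 3.18e-06). Against CD90, 3 were higher and 3 lower in TRKA-TGF, and 3 higher and 6 lower in TRKA. In TRKA-TGF against TRKA, 5 were higher and 1 lower, and Dok5 was higher by 4.71 (adjusted p = 7.56e-05).

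The 10 genes known to respond to RET signalling in the ureteric bud of the mouse kidney moved in both directions. Against p75, 1 was higher and 5 lower in TRKA-TGF, 3 higher and 5 lower in TRKA, and 1 higher and 2 lower in CD90. Etv5, a transcription factor of the ETS class, had levels of 2.43, 2.48, 2.85 and 2.93 in TRKA-TGF and 3.45, 4.09, 3.04 and 1.46 in TRKA, and of 1.53, 1.65, 0.62 and 0.58 in CD90 and 1.18, −1.28, 1.22 and −0.49 in p75. It was higher than in p75 by 2.52 in TRKA-TGF (SE 0.62, adjusted p = 0.0121) and by 2.86 in TRKA (SE 0.62, adjusted p = 0.00249). Its relative Etv4 went the other way in TRKA-TGF against p75 (−3.21, adjusted p = 0.0376). Spry1, an inhibitor of receptor tyrosine kinase signalling, lay between −4.01 and −2.78 in TRKA-TGF, between −7.48 and −5.86 in TRKA, between −2.47 and 0.14 in CD90 and between −0.51 and 0.46 in p75, and was at least 76.4-fold lower in TRKA than in p75 (adjusted p = 1.21e-06). Dusp6, a phosphatase of ERK, was higher in TRKA than in p75 by 3.23 (adjusted p = 2.42e-05), and lower in TRKA-TGF than in TRKA (log2 −2.16, adjusted p = 0.00108). Against CD90, 3 of the 10 were lower in TRKA-TGF, and 3 were higher and 5 lower in TRKA. In TRKA-TGF against TRKA, 3 were higher and 2 lower.

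Of 7 regulators of Ret in the neural crest, 5 were tested. Sox10, a transcription factor of neural crest and glia, had levels of −2.23, −4.99, −2.01 and −4.79 in TRKA-TGF and −7.39, −6.30, −2.62 and −3.93 in TRKA, and of −6.23, −0.68, −7.14 and −6.43 in CD90 and 3.97, 4.22, 4.56 and 4.10 in p75. Every p75 array was above every other array. Sox10 was lower than in p75 in TRKA-TGF (log2 −7.72, adjusted p = 0.00111), in TRKA (log2 −9.27, adjusted p = 0.000113) and in CD90 (log2 −9.33, adjusted p = 0.000466). Its protein is a known activator of Ret in the neural crest, and on the same p75 arrays Ret had the single reading given above. Ednrb, the endothelin receptor B, was lower in CD90 than in p75 (log2 −6.29, adjusted p = 0.0082), and Pax3 was higher in TRKA than in p75 by 0.66 (adjusted p = 0.0245). Pax3 was bright in every population, with means of 7.02 in TRKA-TGF, 7.43 in TRKA, 6.89 in CD90 and 6.78 in p75. Its signal before scaling was no higher in TRKA (122000 to 150000) than in p75 (131000 to 159000). No other calls were made in this group. Of 4 proprotein convertases, the enzymes that can cut the ligand precursors, Pcsk5 was lower in TRKA-TGF than in p75 by at least 30.4-fold (adjusted p = 0.0477) and than in CD90 by at least 128-fold (adjusted p = 0.00899). Furin was lower in CD90 than in p75 (log2 −3.18, adjusted p = 0.0475) and higher in TRKA than in CD90 by 2.62 (adjusted p = 0.0354).

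The genes whose levels ran most like each member were ranked by the root mean square difference of centred log2 levels over the 16 arrays, among 14147 genes. For Gdnf they were Tril (1.20), Baiap2l1 (1.31) and Lgals2 (1.39), where the median over all genes was 3.32. For Gfra1 they were Agrn (0.97), Grik2 (0.99) and Myh14 (1.05), with a median of 3.18. Agrn, the gene of the basal lamina proteoglycan agrin, averaged −1.76 ± 0.34 in TRKA-TGF, −3.95 ± 0.68 in TRKA, −1.82 ± 1.41 in CD90 and 2.83 ± 0.35 in p75 (SD, n = 4). For Gfra2 they were Limch1 (1.61), Ptprz1 (1.68) and Insc (1.88), with a median of 4.85. Ptprz1 encodes a receptor phosphatase found in glia and was well above background on 1 TRKA-TGF array, 2 CD90 arrays and all p75 arrays. For Artn they were Angptl2 (0.79), Erbb2 (0.95) and Olfml1 (0.95), with a median of 2.42. Angptl2, which encodes a secreted angiopoietin-like protein, averaged −2.58 ± 1.10 in TRKA-TGF, −2.05 ± 0.67 in TRKA, 1.25 ± 0.36 in CD90 and 2.08 ± 0.17 in p75. For Nrtn they were Cdk18 (0.97), Or52ae8 (1.00) and Pou3f3 (1.07), with a median of 2.28. Between members the difference was smallest for Gdnf and Gfra1 (1.84) and largest for Nrtn and Gfra2 (4.81), as a description of 16 arrays that share their normalization.

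The starts of Gdnf and Gfra1 are printed because this ligand and its co-receptor were both brightest in p75 cells. Each line gives the 250 bases before the annotated start in RefSeq on GRCr8, 5′ to 3′ on the gene's strand, with motif matches in capitals. Gdnf lies at chr2:58621077-58621326 on the plus strand, and Gfra1 at chr1:267555812-267556061 on the minus strand.
Gdnf: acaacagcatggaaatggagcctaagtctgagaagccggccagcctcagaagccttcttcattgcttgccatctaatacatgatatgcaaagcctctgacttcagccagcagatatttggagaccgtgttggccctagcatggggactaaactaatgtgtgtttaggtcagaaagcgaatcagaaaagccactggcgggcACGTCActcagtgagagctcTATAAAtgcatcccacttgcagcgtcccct
Gfra1: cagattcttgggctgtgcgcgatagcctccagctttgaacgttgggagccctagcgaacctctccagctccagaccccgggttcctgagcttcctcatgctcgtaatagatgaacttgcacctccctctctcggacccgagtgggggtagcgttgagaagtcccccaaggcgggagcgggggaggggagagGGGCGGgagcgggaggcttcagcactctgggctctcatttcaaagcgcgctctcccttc
The motifs searched on both strands, chosen after the sequences were seen, were the TATA box (TATAAA), the cyclic AMP response core (TGACGT), the GC box (GGGCGG) and the SOX core (ACAAAG or ACAATG). The Gdnf window holds 1 TATA box, 30 bases before the start, and 1 cyclic AMP response core, 50 bases before it and read on the opposite strand (ACGTCA as printed). The Gfra1 window holds 1 GC box. Of 33469 rat promoter windows of the same length, 12.9% hold the TATA box, 6.95% the cyclic AMP response core, 30.5% the GC box and 25.3% the SOX core. Of the 6 member windows in the table, which has no Gfra2 entry, 1 (Gdnf) holds the TATA box and the cyclic AMP response core, 3 hold the GC box and 0 the SOX core. The matched letters did not overlap between motifs in the windows printed, and a match says nothing about binding in these cells.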

How the data were processed

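RNA of 16 sorted samples was bound to magnetic beads, copied to cDNA, amplified by PCR and labelled with Cy3, per the labels' protocols. Amplification of small samples can enlarge the differences of rare transcripts. The scanner files, as deposited, give linear intensities with background subtracted, per the file headers (Feature Extraction 10.7.3.1 in the headers, 10.5 in the submitters' processing notes). The authors also deposited a log2 table of the same arrays, which matched quantile-normalized signals centred on each probe's median (r = 0.999999; column medians −0.03 to 0.19); the labels do not state how it was scaled, and it served as an alternative only. Positions are on rn4, as the files give them.

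Spots marked non-uniform or as population outliers were dropped, spots of a probe averaged on the log2 scale, and the array's 75th percentile over probes that were not controls subtracted. A probe was well above background on an array when at least 50% of its spots were marked so, and was kept when so on at least 4 of 16 arrays. A gene was its kept probe with the highest mean. Probes were named by RefSeq accession on GRCr8 (18355) or by symbol or synonym (3180); 8832 kept the file's name. A model with 1 mean per population was fitted to all arrays with limma 3.58.1 in R 4.3.3 (empirical Bayes without trend), with Benjamini-Hochberg adjustment over 20571 genes and calls at an adjusted p under 0.05. Adjusted p-values come from it unless another fit is named. Where no array of a population measured a probe well above background, the fold is a bound. It sets the brighter population's mean against the dimmer one's mean, in which each array counts with its lowest level among measured probes or with the probe's own, whichever is higher. Such a bound is approximate.

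On simulated data for TRKA against p75 over 20571 genes, the fit recovered 8, 14, 62 and 74% of genes changed by 1, 2, 4 and 6 log2 units. There 50 genes were changed at each size, whereas 7352 genes were called in the data. With so few changed genes the adjustment is stricter, so these rates are not those of the fits above. The number of arrays limits the precision. No array had saturated spots outside the controls. Replicates are biological per the labels, and equal replicate numbers did not pair the samples: the 24 same-numbered pairs correlated at −0.034 to 0.043. The members, the pathway and marker lists and the rule for named genes (all members and their probes; per pathway list and comparison, the 3 called genes with the largest difference each way; per tested member, the 3 nearest genes; Thy1, Ngfr and a gene not reported here) were chosen with earlier results of these data known. The text gives part of the genes that this rule names. Alternatives were other scalings, backgrounds, filters and fits, the authors' log2 values, the replicate number as a block, and leaving out each array in turn.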

Additional observations from a re-analysis of the deposited data

Results flagged for a closer look

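Of 44 groups of 4 arrays (11 probes in 4 populations), 8 held 1 array that stood far from the other 3, where chance gives about 1 in 20 groups. In 5 of these the probe was well above background on at least 1 array of the group. Nrtn was highest on CD90 replicate 2 (−5.14), against −5.75, −5.81 and −5.79 on the other arrays. Artn was highest on TRKA-TGF replicate 4 (−2.47), against −4.52, −4.66 and −4.75, and that array was also the highest of its population for Gfra1 (−2.08). Gfra1 was highest on TRKA replicate 2 (−4.95), the TRKA array on which it was well above background. Gfra1 was lowest on p75 replicate 1 (−0.46), against 1.53, 1.30 and 1.41. Gfra2, by probe A_64_P007628, was highest on TRKA-TGF replicate 1 (−0.74), where probe A_64_P146388 read −7.72 and probe A_42_P791436 read −4.36.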

How the results depend on the processing

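Each result was recomputed under 10 other settings and with each of 16 arrays left out. Of 312 values of the 12 counts of called genes, 293 stayed within 1.5 times the main count and 19 moved. Of 774 values for single members, 694 kept their side of the threshold and direction, 39 lost a call, 7 gained one, none of the called ones changed sign, and 34, of differences that were not called, moved or changed sign. The members called in TRKA-TGF against TRKA went to 1 (Artn) with quantile normalization (−2.45, adjusted p = 0.0213) and median scaling (−2.74, adjusted p = 0.00478), against 0 in the main fit. So did the authors' values (−2.44, adjusted p = 0.0214), which matched quantile-normalized signals. Those called in TRKA against CD90 went to 0 with normexp background, the fit of the 2 populations alone and the trend (Artn adjusted p 0.0541, 0.116 and 0.0513), and to between 0 and 1 with arrays left out. With quantile normalization, the authors' values that matched it and median scaling, the single call was Nrtn in place of Artn. Without CD90 replicate 3, Gdnf was called there in place of Artn (−3.60, adjusted p = 0.0215). Pathway genes called in TRKA-TGF against TRKA went to 10 with normexp background, against 16. For Gdnf in CD90 against p75 the adjusted p ran from 0.00263 to 0.155, and 19 of 25 alternatives lost the call; with the replicate block its adjusted p was 0.0961; the block changed no other member's call, and 8 of 16 arrays correlated best with their own number. Gdnf was not tested with the filter at 8 arrays. Median scaling moved the median difference of all genes in TRKA against p75 to 1.66 from −0.01, the calls to 11468 from 7352 and the share of higher calls to 84.3% from 52.7%, with 66.9% under normexp. For TRKA against CD90 it gave 11406 calls, 85.0% higher, against 7175 and 52.3%, and normexp gave 62.7%. For TRKA-TGF against TRKA it gave 10003 calls, 10.9% higher, against 5434 and 51.1%, while quantile normalization gave 39.8%, normexp 38.8% and the authors' values 39.9%. Under median scaling, Gdnf (−5.04), Gfra1 (−5.35) and Gfra2 (−8.75) stayed called lower in TRKA than in p75. Dim probes limit the rest: differences of Gfra3, Ret and, outside p75, Gdnf and Gfra2 lie at the background. Most TRKA readings of Gfra1 lie there too.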
